A study of Mus musculus with 12 samples.

Results

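Lipid droplet genes were followed in the gastrocnemius, the large calf muscle, of tumour-free mice and of tumour-bearing mice given vehicle or selpercatinib. The set holds 10 genes: the lipase genes Pnpla2, Lipe and Mgll, the lipase-related Pnpla3, the co-activator and inhibitor genes Abhd5 and G0s2, and the perilipin genes Plin2, Plin3, Plin4 and Plin5. They were chosen by name for their place on the lipid droplet, and selected on levels in these same libraries that were already known. They are 10 of 54532 genes listed, and all 10 were among the 12754 genes tested.

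RNA came from the hindlimb gastrocnemius of female ICR SCID mice, an immunodeficient strain that accepts human tumour cells. Each of the 3 groups holds 4 libraries, described as biological replicates, and the mice's age is not given. The NTV group had no tumour and received vehicle. The TV group bore an HT1080 tumour under the skin, grown from a line of human fibrosarcoma cells, and was given vehicle. The TL group bore such a tumour as well and was given the RET kinase inhibitor selpercatinib, 30 mg/kg by oral gavage once a day for 19 days. A single tumour line was used, and none of the 12 libraries comes from tumour-free mice given selpercatinib, so an action of the drug on muscle and one through the tumour cannot be told apart. TV against NTV asks what differs with the tumour, TL against TV what differs with selpercatinib in tumour-bearing mice, and TL against NTV how treated tumour-bearing mice compare with tumour-free ones. The 3 comparisons share libraries, so their values are set side by side and not counted as independent.

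Triglyceride in cells is stored in droplets under a coat of proteins. It is broken down in steps: adipose triglyceride lipase, the product of Pnpla2, removes the first fatty acid, hormone-sensitive lipase (Lipe) acts chiefly on the diglyceride, and monoglyceride lipase (Mgll) releases the last one. The product of Abhd5, CGI-58, activates adipose triglyceride lipase and that of G0s2 inhibits it. Perilipins coat the droplet and control access to it; Plin5 is abundant in oxidative tissues, where it brings droplets and mitochondria together, Plin2 and Plin3 are widespread, Plin4 is found in muscle and fat, and Plin1, not in this set, is the perilipin of fat cells. In muscle, droplets lie between the fibrils and serve as fuel.

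Levels are FPKM, a read count scaled by library and by gene length, so that genes can be set side by side. Changes are log2 differences of FPKM + 0.5 ± SE from 1 limma fit over all 12 libraries, and a gene was called at a Benjamini-Hochberg adjusted p under 0.05 over the 12754 genes. Because the set was selected with these values known, its calls describe the genes and add no independent evidence. No p is given for Pnpla3, which names the set. Depth was 14939830 to 23580603 reads assigned to genes, both extremes in TV. Skeletal muscle markers (9 genes, among them Acta1, Ckm and Myh4) summed to between 39674 and 79121 FPKM in every library. Fat tissue RNA was present too: the summed FPKM of 12 white adipocyte markers was 96.5 to 285 in NTV, 161 to 738 in TV and 104 to 978 in TL, with none of the 12 at 0 throughout. Ucp1, which defines brown fat, was at 53.4 FPKM in NTV replicate 5, 58.3 in TL replicate 1 and 3.97 in TL replicate 5, and at or below 1.06 in the other 9 libraries. These 3 libraries stand apart, and results are given with and without them where that matters. In bulk muscle RNA, fewer cells of a type and less RNA per cell cannot be told apart.

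Against NTV, TV muscle had lower Pnpla3, Plin5 and Mgll and higher Plin4. The same comparison called 25.2% of all tested genes, 13.8% higher and 11.5% lower, against 4 of the 10 genes here, 1 higher and 3 lower. The median change of the 10 was -0.42, beside 0.015 over all tested genes. In TL against TV, Pnpla3 alone was called, and it was higher, where 0.517% of all genes were called, 0.235% higher and 0.282% lower. In TL against NTV, Plin5 alone was called, and it was lower, where 8.81% of all genes were called, 4.19% higher and 4.62% lower. The medians of the 10 genes were 0.28 in TL against TV and 0.22 in TL against NTV, beside -0.0031 and 0.022 over all genes.

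**Figure D1:**
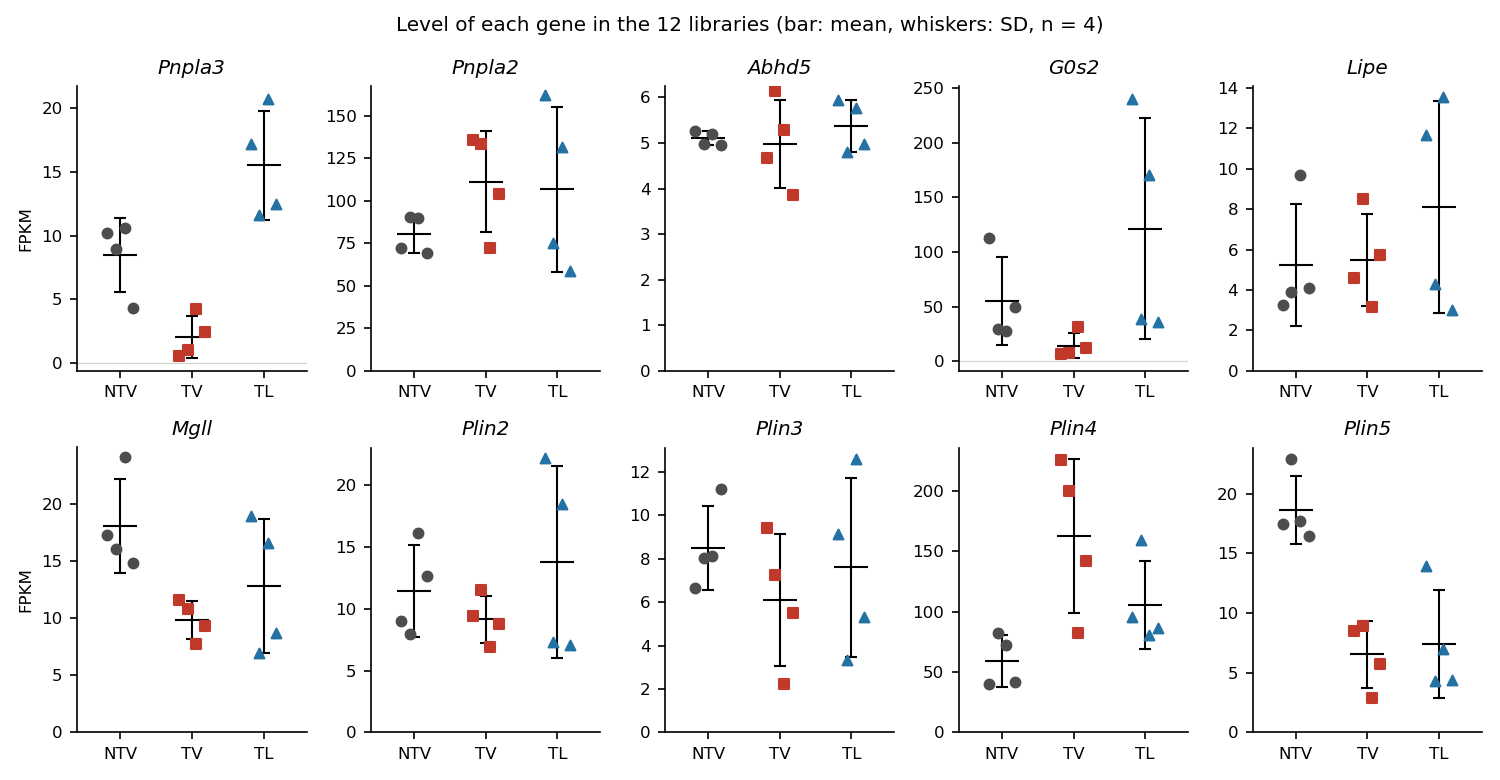
FPKM of each of the 10 genes (vertical axis, starting at or just below 0, own scale per gene) in every library of NTV, TV and TL, 1 point per library, with the mean and SD of 4 libraries. Pnpla3 shows 3 groups without overlap, from 0.530 to 4.21 FPKM in TV, 4.29 to 10.6 in NTV and 11.6 to 20.7 in TL, while Abhd5 stays between 3.85 and 6.13 FPKM throughout.

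Pnpla3 encodes adiponutrin, a droplet protein related to adipose triglyceride lipase and best known from the liver. The gene lies at chr15:84167837-84187236 on the plus strand of mm10. Its span overlaps Gm49513 over 5323 bases and Mir6392 over 108 bases on the same strand, at 0.136 and 3.53 FPKM on average. On the other strand it overlaps Gm20369 over 307 bases, at 0.556 FPKM on average. Whether these overlaps affect its reads was not tested. In NTV, Pnpla3 stood at 10.2, 8.94, 10.6 and 4.29 FPKM in replicates 2, 3, 5 and 6. In TV it stood at 0.530, 1.01, 4.21 and 2.47 FPKM in replicates 3, 4, 6 and 8. In TL it reached 17.2, 11.6, 20.7 and 12.5 FPKM in replicates 1, 4, 5 and 7. The 3 groups did not overlap, with TV lowest and TL highest, but TV replicate 6 and NTV replicate 6 lay almost side by side. The values rest on 20 to 504 reads per library, the fewest in TV replicate 3, so the lowest levels carry the largest counting error. The means were 8.51 ± 2.90 FPKM (SD, n = 4) in NTV, 2.05 ± 1.65 (SD, n = 4) in TV and 15.5 ± 4.25 (SD, n = 4) in TL.

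Pnpla3 fell by 1.99 ± 0.43 on the log2 scale in TV against NTV and rose by 2.85 ± 0.43 in TL against TV, both called. TL exceeded NTV by 0.87 ± 0.43, which was not called. Without the 3 libraries with Ucp1 above 2 FPKM, the TV against NTV change was -1.86 ± 0.49 and still called, and the TL against TV change was 2.54 ± 0.56 and not called, with 2 TL libraries left. The TL against TV call was also lost without TV replicate 4 (2.68 ± 0.46), without TL replicate 1 (2.79 ± 0.48), without TL replicate 5 (2.70 ± 0.47), with no filter on low genes, and with only the 2 groups in the fit. With a term for each replicate number, the replicate block, both calls were lost. The change was then -1.70 ± 0.66 in TV against NTV and 2.82 ± 0.81 in TL against TV. With the white adipocyte marker mean as a covariate the TL against TV change was 2.81 ± 0.45 and called.

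The 5 protein-coding genes that followed Pnpla3 most closely over the 12 libraries were taken from 10941 compared by the Pearson correlation of log2(FPKM + 0.5). They were Miga2 (r = 0.964), Ccnj (0.951), Thnsl1 (0.943), Ahdc1 (0.933) and Inka2 (0.933). Group differences enter these values, so they describe a shared order of levels over the same libraries and nothing more. Their spans were narrower than that of Pnpla3. Miga2 was at 4.85 to 5.60 FPKM in NTV, 2.17 to 3.75 in TV and 5.30 to 6.997 in TL. Inka2 was at 2.66 to 3.88 FPKM in NTV, 0.970 to 1.81 in TV and 4.22 to 6.09 in TL. In both genes TV lay wholly below the other groups, as in Pnpla3, which they were picked for following. In Inka2 all of TL also lay above all of NTV, whereas in Miga2 these groups overlapped.

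As in Abhd5 and Plin2, whose differences were smaller, G0s2 had the same order of group means as Pnpla3. Its product binds adipose triglyceride lipase and blocks it, and the gene lies at chr1:193272161-193273217 on the minus strand, wholly inside the span of Lamb3 on the other strand. In NTV, G0s2 stood at 113, 29.5, 28.3 and 49.7 FPKM in replicates 2, 3, 5 and 6. The TV libraries had 6.64, 7.90, 31.1 and 12.3 FPKM in replicates 3, 4, 6 and 8. In TL it reached 239.8, 38.7, 171 and 35.8 FPKM in replicates 1, 4, 5 and 7. TV replicate 6, the highest of its group in Pnpla3 too, overlapped with NTV, whereas all of TL lay above all of TV. TL split into a high pair, replicates 1 and 5, and a low pair within the range of NTV.

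The G0s2 change was -1.92 ± 0.69 in TV against NTV (adjusted p = 0.0610) and 2.81 ± 0.69 in TL against TV (adjusted p = 0.102), and neither was called. The first was called without TV replicate 6 (-2.36, adjusted p = 0.0306), without TL replicate 1 (adjusted p = 0.0476) and without the 3 libraries with Ucp1 (-2.15, adjusted p = 0.0304). The second was called without TL replicate 4 (3.19, adjusted p = 0.0476), and was 1.60 ± 0.63 without the 3 libraries with Ucp1, since the high TL pair is among them. That pair also had the highest white adipocyte marker means, 3.79 and 4.26 on the log2 scale, while NTV replicate 2, with 113 FPKM of G0s2, had the lowest of all 12, 1.27. With the white adipocyte marker mean as a covariate, G0s2 was -2.20 ± 0.74 in TV against NTV (adjusted p = 0.0493), which was called, and 2.68 ± 0.70 in TL against TV (adjusted p = 0.133). Lamb3 averaged 0.816 FPKM, and with no strand setting given, reads from the 2 genes cannot be told apart.

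The RefSeq windows around the start sites of Pnpla3 and G0s2 are shown because these 2 genes had the largest changes of the set in TV against NTV and in TL against TV. Each holds 250 bases before and 50 from the annotated start (GRCm38.p6, the build of mm10), read 5′ to 3′ on the strand of the gene. Capitals mark matches, on either strand, to 5 motifs searched: CCAAT, the GC box GGGCGG, the E-box CACGTG, the FoxO site GTAAACA and the sterol element core TCACNCCAC.
Pnpla3, chr15:84167566-84167865, plus strand: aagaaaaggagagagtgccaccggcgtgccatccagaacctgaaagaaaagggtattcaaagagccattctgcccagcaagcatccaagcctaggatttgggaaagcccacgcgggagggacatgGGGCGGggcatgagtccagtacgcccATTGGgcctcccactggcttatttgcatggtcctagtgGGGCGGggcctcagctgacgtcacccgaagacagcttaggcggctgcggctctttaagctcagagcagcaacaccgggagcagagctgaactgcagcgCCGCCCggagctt
G0s2, chr1:193273139-193273438, minus strand: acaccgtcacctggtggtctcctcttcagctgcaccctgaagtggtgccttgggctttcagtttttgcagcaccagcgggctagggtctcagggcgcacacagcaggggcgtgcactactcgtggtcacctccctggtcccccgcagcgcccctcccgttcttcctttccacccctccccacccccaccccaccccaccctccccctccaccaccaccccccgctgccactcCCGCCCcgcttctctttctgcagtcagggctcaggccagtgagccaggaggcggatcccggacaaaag
The Pnpla3 window holds 1 CCAAT box and 3 GC boxes, and the G0s2 window 1 GC box. Of all 32851 mouse windows of this length in the table, 37.4% held CCAAT, 35.7% the GC box, 7.15% the E-box, 3.65% the FoxO site and 1.24% the sterol element core. Of the 13 windows of the 10 genes, 5 held CCAAT, 11 the GC box, 3 the E-box, 2 the FoxO site and 0 the sterol core in these letters. Counted by gene, which is not the unit of those shares, 5 of the 10 had a CCAAT box, 9 a GC box, 3 an E-box and 2 a FoxO site. Within a window, matches overlapped each other only among the GC boxes of Lipe and of Plin3. The 2 windows of Plin5 share bases, so 1 GC box of Plin5 stands in both. A match is a description of the sequence, and neither a match nor its absence says whether a factor binds.

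Pnpla2 at chr7:141455198-141460743 was, with Plin4, one of the most abundant genes of the set per length. In NTV, Pnpla2 stood at 72.3, 90.2, 89.7 and 69.0 FPKM in replicates 2, 3, 5 and 6. In TV it stood at 136, 133, 72.1 and 104 FPKM in replicates 3, 4, 6 and 8. In TL it stood at 162, 74.8, 132 and 58.4 FPKM in replicates 1, 4, 5 and 7. NTV was tight, TV spread across and above it, and TL spread from below it to above it, again with TL replicates 1 and 5 highest in their group. The change was 0.43 ± 0.30 in TV against NTV (adjusted p = 0.313), -0.13 ± 0.30 in TL against TV (adjusted p = 0.875) and 0.30 ± 0.30 in TL against NTV (adjusted p = 0.554). Without the 3 libraries with Ucp1 above 2 FPKM the TL against TV change was -0.70 ± 0.26 (adjusted p = 0.674), and with the adipocyte covariate the TV against NTV change was 0.091 ± 0.20 (adjusted p = 0.772). Abhd5, at chr9:122351608-122381524, was the steadiest of the set, at 4.96 to 5.27 FPKM in NTV, 3.85 to 6.13 in TV and 4.80 to 5.95 in TL. Its changes were -0.048 ± 0.12, 0.11 ± 0.12 and 0.063 ± 0.12 in the 3 comparisons in that order, none of them called.

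Set against the lipase it inhibits, G0s2 varied more. The ratio of G0s2 to Pnpla2 in FPKM was 0.315 to 1.57 in NTV, 0.0490 to 0.431 in TV and 0.518 to 1.48 in TL. TV replicate 6 alone among TV libraries reached into the range of NTV, and every TL ratio exceeded every TV ratio. The ratio of the co-activator Abhd5 to Pnpla2 overlapped across the groups, at 0.0553 to 0.0729 in NTV, 0.0344 to 0.0733 in TV and 0.0367 to 0.0851 in TL. These are ratios of transcript levels, given with no test.

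Lipe, at chr7:25379527-25398710 on the minus strand, was high in each group where the fat markers were high. Its span overlaps 4732471J01Rik on the other strand over 19184 bases, a gene at 0.245 FPKM on average. In NTV, Lipe stood at 3.25, 3.90, 9.69 and 4.09 FPKM in replicates 2, 3, 5 and 6. Levels in TV were 4.62, 8.49, 3.15 and 5.71 FPKM in replicates 3, 4, 6 and 8. Levels in TL were 11.7, 4.30, 13.5 and 2.99 FPKM in replicates 1, 4, 5 and 7. The 4 libraries with the highest Lipe, TL replicates 5 and 1, NTV replicate 5 and TV replicate 4, were also the 4 with the highest white adipocyte marker means. Adipoq, the adiponectin gene of fat cells, was at 66.0, 51.2, 16.7 and 33.6 FPKM in those 4 in that order. No change in Lipe was called, at 0.11 ± 0.47 in TV against NTV (adjusted p = 0.891), 0.36 ± 0.47 in TL against TV (adjusted p = 0.753) and 0.47 ± 0.47 in TL against NTV (adjusted p = 0.548). With the marker mean as a covariate the change was -0.54 ± 0.093 in TV against NTV (adjusted p = 0.00292) and -0.47 ± 0.10 in TL against NTV (adjusted p = 0.0176), both called and of the other sign. That covariate and Lipe come from the same libraries, and Lipe is itself strongly expressed in fat cells.

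Mgll, at chr6:88724412-88828360 on the plus strand, was lower in TV. In NTV, Mgll stood at 17.3, 16.1, 24.1 and 14.8 FPKM in replicates 2, 3, 5 and 6. In TV it stood at 11.6, 10.7, 7.77 and 9.28 FPKM in replicates 3, 4, 6 and 8. In TL it stood at 18.9, 6.93, 16.6 and 8.72 FPKM in replicates 1, 4, 5 and 7. All of TV lay below all of NTV, and TL split into a pair at the level of NTV, replicates 1 and 5, and a pair within or below the range of TV. Mgll fell by 0.83 ± 0.28 on the log2 scale in TV against NTV (adjusted p = 0.0481). That call was narrow: it was lost in each fit that left out 1 of the 8 NTV and TV libraries, and without TL replicate 7, with changes of -0.69 to -0.92 and adjusted p = 0.0501 to 0.123. It was lost as well with no filter on low genes (adjusted p = 0.101), no variance trend (0.0519), a robust fit (0.0506) and the replicate block (-0.52, adjusted p = 0.237). In all, 13 of 26 alternatives lost it. TL against NTV was -0.57 ± 0.28 (adjusted p = 0.212), but -0.998 ± 0.18 without the 3 libraries with Ucp1 above 2 FPKM (adjusted p = 0.0210) and -1.05 ± 0.19 with the adipocyte covariate (adjusted p = 0.0107). TL against TV was 0.26 ± 0.28 (adjusted p = 0.700).

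**Figure D2:**
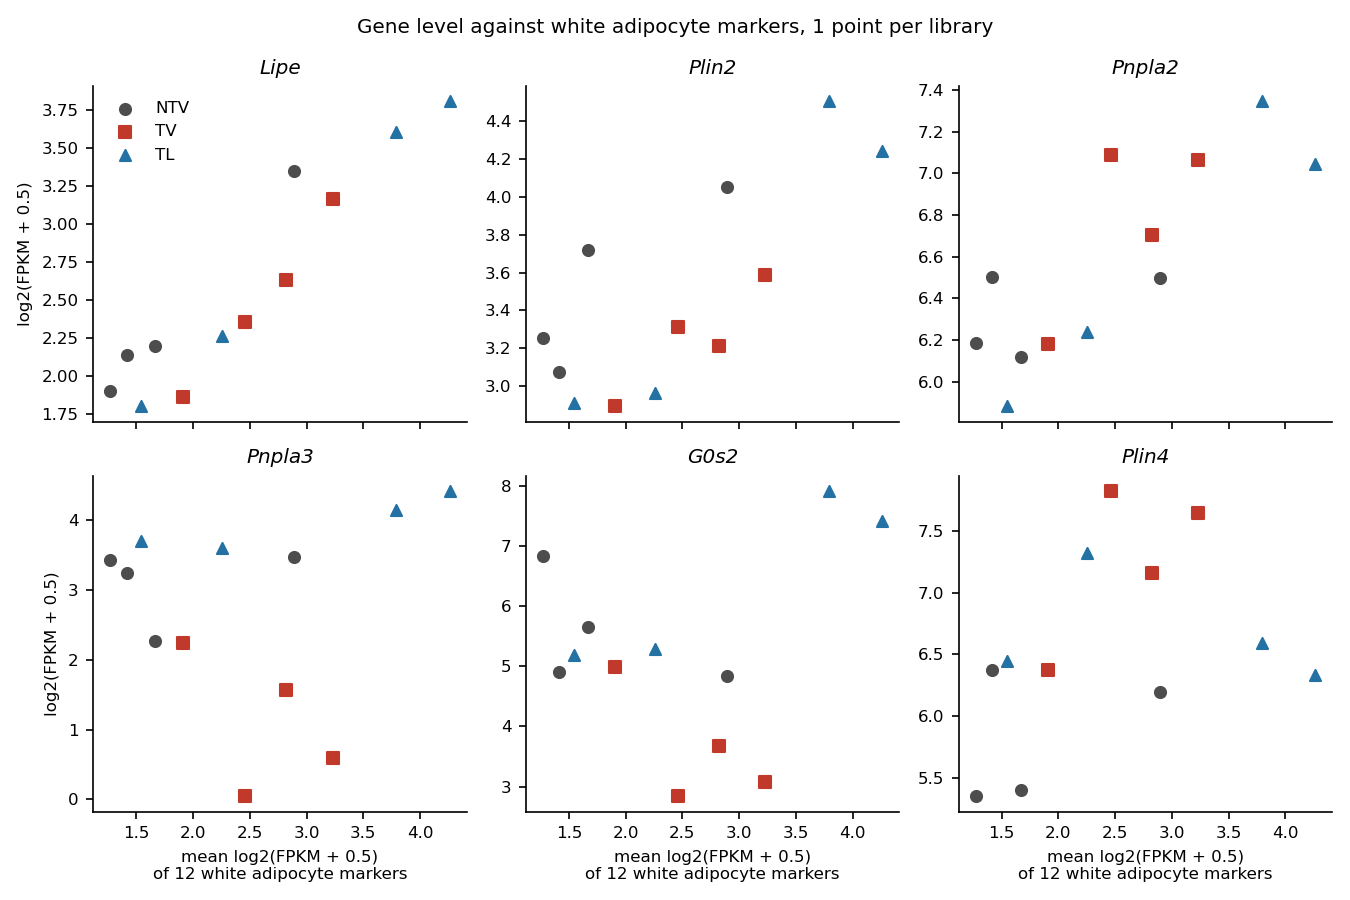
Level of 6 genes as log2(FPKM + 0.5) (vertical axis) against the mean log2(FPKM + 0.5) of 12 white adipocyte markers (horizontal axis), 1 point per library, coloured by group. Lipe is highest in the libraries with the most marker RNA whatever their group, whereas the TV libraries, with marker means of 1.91 to 3.23, include the lowest Pnpla3.

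Plin5 and Plin4 moved in opposite directions in TV against NTV, and are neighbours on the chromosome. Plin4 lies at chr17:56100591-56109803 and Plin5 at chr17:56111601-56117596, both on the minus strand and 1797 bases apart, and Plin3 follows at chr17:56277476-56292873. In NTV, Plin5 stood at 17.5, 22.9, 17.7 and 16.4 FPKM in replicates 2, 3, 5 and 6. The TV values were 8.53, 8.96, 2.89 and 5.77 FPKM in replicates 3, 4, 6 and 8. The TL values were 13.9, 4.32, 6.98 and 4.40 FPKM in replicates 1, 4, 5 and 7. Every tumour-bearing library, treated or not, lay below every NTV library. Plin5 fell by 1.54 ± 0.37 on the log2 scale in TV against NTV (adjusted p = 0.0118) and by 1.42 ± 0.37 in TL against NTV (adjusted p = 0.0359), with 0.12 ± 0.37 in TL against TV (adjusted p = 0.907). The TL against NTV call was lost without NTV replicate 2 (-1.44), 3 (-1.32), 5 (-1.44) or 6 (-1.47), without TL replicate 4 (-1.23), 5 (-1.44) or 7 (-1.24), with adjusted p = 0.0542 to 0.105, and with no filter on low genes (adjusted p = 0.0792). Both Plin5 calls were lost with the replicate block. Without the 3 libraries with Ucp1 above 2 FPKM the TL against NTV change was -1.99 ± 0.39 (adjusted p = 0.0280).

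In NTV, Plin4 stood at 40.3, 82.3, 72.7 and 41.9 FPKM in replicates 2, 3, 5 and 6. In TV it stood at 226, 199.9, 82.2 and 142 FPKM in replicates 3, 4, 6 and 8. In TL it stood at 95.9, 159.6, 80.2 and 86.5 FPKM in replicates 1, 4, 5 and 7. TV replicate 6 lay at the top of the NTV range and the other 3 TV libraries above it, while TL lay near or above the highest NTV value. Plin4 rose by 1.42 ± 0.34 on the log2 scale in TV against NTV (adjusted p = 0.0122), and stayed called without the 3 libraries with Ucp1 above 2 FPKM (1.54 ± 0.40, adjusted p = 0.0303). It was 0.84 ± 0.34 in TL against NTV (adjusted p = 0.137) and -0.58 ± 0.34 in TL against TV (adjusted p = 0.437). Plin4 shares 17 bases with Hdgfl2 on the other strand, a gene at 7.38 FPKM on average.

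The ratio of Plin4 to Plin5, both per length, was 2.30 to 4.09 in NTV and 22.3 to 28.4 in TV. In TL it ran from 6.89 in replicate 1 through 11.5 in replicate 5 and 19.7 in replicate 7 to 37.0 in replicate 4. Every tumour-bearing library lay above every NTV library, and the TV ratios were close together although both genes varied several-fold within TV. This ratio was not among those planned, and it pairs 2 genes called in opposite directions. It describes their levels and adds no evidence to their changes. Their start windows are shown because these neighbours moved apart, on the same terms as above, the upstream of 2 windows for Plin5.
Plin5, chr17:56117499-56117798, minus strand: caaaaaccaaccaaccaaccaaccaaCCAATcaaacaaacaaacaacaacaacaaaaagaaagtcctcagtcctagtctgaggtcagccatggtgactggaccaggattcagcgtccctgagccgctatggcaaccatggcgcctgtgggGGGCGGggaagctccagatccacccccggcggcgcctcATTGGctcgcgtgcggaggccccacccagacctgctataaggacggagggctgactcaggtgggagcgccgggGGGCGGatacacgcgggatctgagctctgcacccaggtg
Plin4, chr17:56109733-56110032, minus strand: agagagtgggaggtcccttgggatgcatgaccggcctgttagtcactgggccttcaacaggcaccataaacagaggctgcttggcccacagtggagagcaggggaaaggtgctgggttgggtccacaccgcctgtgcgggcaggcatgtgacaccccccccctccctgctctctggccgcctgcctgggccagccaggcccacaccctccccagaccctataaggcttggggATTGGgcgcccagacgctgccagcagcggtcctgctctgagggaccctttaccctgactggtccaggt
The Plin5 window holds 2 CCAAT boxes and 2 GC boxes, and the Plin4 window 1 CCAAT box. Plin4 was the one gene of the 10 with no GC box in these letters.

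Plin2 and Plin3 were not called in any comparison. Plin2, at chr4:86648386-86670060, was at 7.93 to 16.1 FPKM in NTV, 6.92 to 11.5 in TV and 7.03 to 22.2 in TL. The 3 highest libraries, TL replicate 1 at 22.2, TL replicate 5 at 18.4 and NTV replicate 5 at 16.1 FPKM, were the 3 with Ucp1 above 2 FPKM. Its changes were -0.28 ± 0.36 in TV against NTV (adjusted p = 0.605), 0.41 ± 0.36 in TL against TV (adjusted p = 0.621) and 0.13 ± 0.36 in TL against NTV (adjusted p = 0.847). With the adipocyte covariate the TV against NTV change was -0.74 ± 0.17 (adjusted p = 0.00977), which was called. Plin3, whose product moves from the cytosol to new droplets, was at 6.66 to 11.2 FPKM in NTV, 2.23 to 9.43 in TV and 3.35 to 12.6 in TL. Its changes were -0.57 ± 0.42 (adjusted p = 0.337), 0.29 ± 0.42 (adjusted p = 0.782) and -0.28 ± 0.42 (adjusted p = 0.702) in the same order. The ratio of Plin2 to Plin5 was 0.346 to 0.907 in NTV, 1.10 to 2.39 in TV and 1.60 to 2.64 in TL, so that Plin5 exceeded Plin2 in all NTV libraries and in none of the others.

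Across the 4 perilipins, the mix of transcripts lay further toward Plin4 in TV than in NTV. In TL the Plin5 share lay wholly below NTV, while the Plin4 share of 2 libraries fell just below the highest NTV share. Plin4 made up 50.9 to 67.9% of their summed FPKM in NTV, 87.2 to 89.2% in TV and 67.8 to 91.4% in TL. Plin5 made up 15.5 to 23.8% in NTV, 3.07 to 3.93% in TV and 2.47 to 9.87% in TL. Plin3, not called in any comparison, made up 6.62 to 13.6% in NTV, 2.36 to 3.73% in TV and 1.92 to 10.7% in TL. Plin2, not called either, made up 6.55 to 15.4%, 3.72 to 7.35% and 4.18 to 15.7% in the same order. A larger Plin4 share leaves less for the others, so a lower share is not in itself a lower level. The sum itself was 73.5 to 121 FPKM in NTV, 94.3 to 253 in TV and 103 to 175 in TL, so it overlapped across groups. In TL, replicates 1 and 5 held Plin4 shares of 67.9 and 67.8%, at the upper end of NTV, and replicates 4 and 7 shares of 91.4 and 83.8%. Replicates 1 and 5 are the TL libraries with Ucp1 above 2 FPKM, and the part of fat tissue RNA in their shares was not tested.

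**Figure D3:**
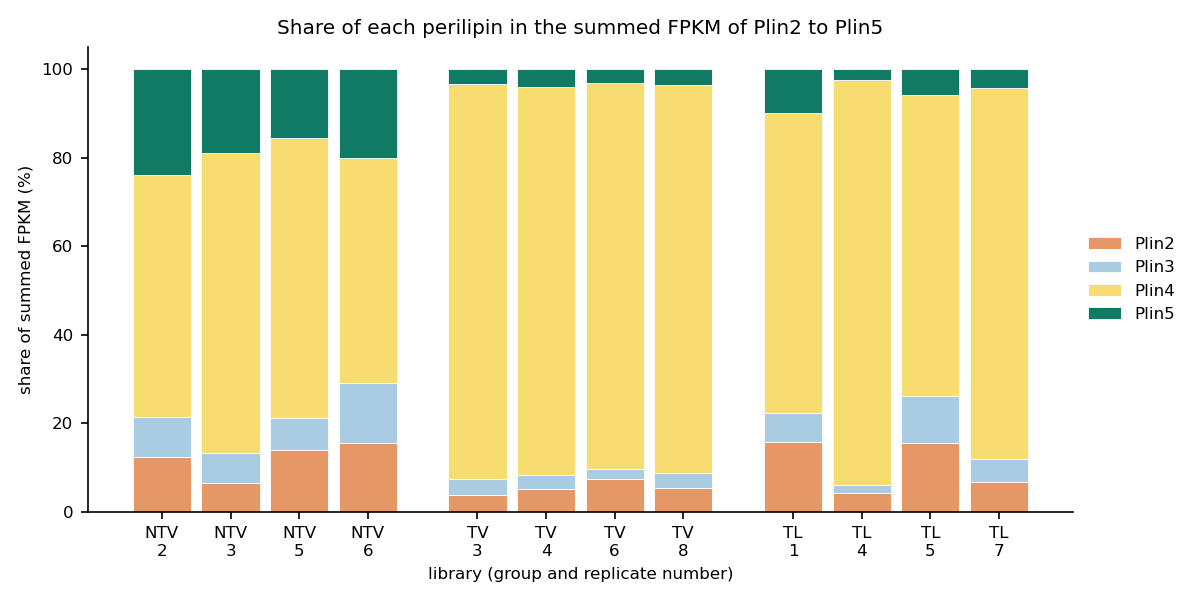
Share of each of Plin2, Plin3, Plin4 and Plin5 in their summed FPKM (vertical axis, percent) in each of the 12 libraries (horizontal axis), stacked to 100%. The Plin5 segment takes 15.5 to 23.8% in NTV and at most 9.87% in every tumour-bearing library, while the Plin4 segment is widest in TV and in TL replicates 4 and 7.

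**Figure D4:**
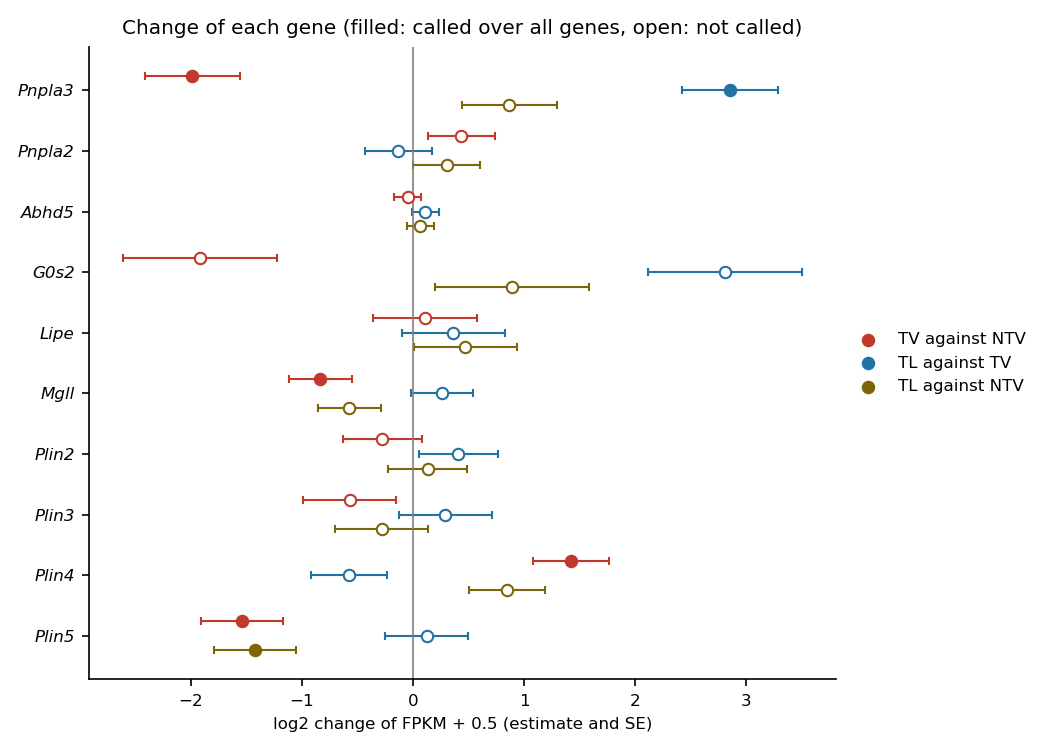
Change of each gene on the log2(FPKM + 0.5) scale (horizontal axis) in the 3 comparisons, 1 colour each, with SE as whiskers, filled where called over all genes. Pnpla3 and G0s2 show the widest swings, -1.99 and -1.92 with the tumour and 2.85 and 2.81 with selpercatinib, and of these 4 points only those of Pnpla3 are filled.

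Other genes of the pathway, and markers of other cells, were taken from 12 lists named by textbook role, with 120 genes tested. In TV against NTV 21 of the 120 were called, or 17.5% beside 25.2% over all genes, and in TL against NTV 9, or 7.5% beside 8.81%. In TL against TV limma called 0 of the 120, and voom on recovered reads 0, while 21 had an unadjusted p under 0.05. Among 13 tested other droplet proteins, 1 was higher and 2 were lower in TV against NTV. Fitm2 and Fitm1, which help triglyceride partition into droplets, fell by 0.58 ± 0.12 (adjusted p = 0.00642) and 0.47 ± 0.15 (adjusted p = 0.0442) on the log2 scale. Aup1, a droplet and endoplasmic reticulum protein, rose by 0.73 ± 0.13 (adjusted p = 0.00266). In TL against NTV 1 of the 13, Faf2, was higher, at 0.39 ± 0.11 (adjusted p = 0.0489).

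Of 12 tested genes of triglyceride synthesis, 1 was called lower in TV against NTV, Agpat5, and 1 lower in TL against NTV, Lpin3, a phosphatidate phosphatase. Agpat5 fell by 0.36 ± 0.11 (adjusted p = 0.0296) and Lpin3 by 0.75 ± 0.20 (adjusted p = 0.0402) on the log2 scale. Dgat2, which makes triglyceride from diglyceride, was not called in TL against TV, at 1.38 ± 0.63 (adjusted p = 0.309). Of 10 tested other lipases and esterases, Pnpla7, a lysophospholipase related to Pnpla2 and Pnpla3 by its patatin domain, rose by 1.13 ± 0.18 in TV against NTV (adjusted p = 0.00217). It was at 5.83 to 7.29 FPKM in NTV, 11.3 to 21.9 in TV and 7.42 to 11.4 in TL. Dagla, a diglyceride lipase, fell by 0.68 ± 0.20 in the same comparison (adjusted p = 0.0268), and the other 8 were not called.

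Of 13 tested genes that signal to lipolysis, 1 was called lower in TV against NTV and the same 1 in TL against NTV. It was Prkar1a, a regulatory subunit of protein kinase A, at -0.39 ± 0.10 (adjusted p = 0.0168) and -0.42 ± 0.10 (adjusted p = 0.0267). Among 15 genes of the SREBP, ChREBP and LXR list, whose factors drive lipid synthesis genes and, in liver, Pnpla3, 2 were called higher in TV against NTV and 0 lower. They were the liver X receptor genes Nr1h2, at 0.39 ± 0.081 (adjusted p = 0.00599), and Nr1h3, at 0.34 ± 0.11 (adjusted p = 0.0383). With the adipocyte covariate 1 gene of the list was called higher and 7 lower, and 2 higher and 1 lower when the 3 libraries high in Ucp1 were left out. The list's median was 0.67 in TL against TV and 0.87 in TL against NTV. In the latter limma called 0 of the 15, voom called 1, and 7 had an unadjusted p under 0.05. The 2 genes with the largest change in TL against NTV were highest in the libraries high in Ucp1. Scd1, a desaturase, was at 6.19 to 42.5 FPKM in NTV and 17.8 to 679.7 in TL, with 318 in TL replicate 1 and 679.7 in TL replicate 5 and at most 21.8 in the other TL libraries, a change of 2.98 ± 1.06 (adjusted p = 0.0971). Fasn, fatty acid synthase, was at 2.66 to 63.6 FPKM in NTV and 3.66 to 137 in TL, with 137 in TL replicate 1 and 121 in TL replicate 5 and at most 14.9 in the other TL libraries, a change of 2.17 ± 1.17 (adjusted p = 0.253). The highest NTV value of both genes was in NTV replicate 5.

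Of 12 tested PPAR factors and targets, which serve fatty acid oxidation, 3 were called lower and 0 higher in TV against NTV. Over all genes 11.5% were called lower there, and 25.2% in either direction. Fabp3, which carries fatty acids inside muscle and heart cells, fell by 2.22 ± 0.31 on the log2 scale (adjusted p = 0.00135), from 784 ± 118 FPKM (SD, n = 4) in NTV to 175 ± 58.4 (SD, n = 4) in TV. Slc25a20, the mitochondrial carnitine-acylcarnitine carrier, fell by 0.87 ± 0.21 (adjusted p = 0.0122), and Acadm, an acyl-CoA dehydrogenase, by 0.66 ± 0.22 (adjusted p = 0.0427). The list's median was -0.055, beside 0.015 over all genes. In TL against NTV Fabp3 alone was called, at -1.93 ± 0.31 (adjusted p = 0.00600).

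Markers of other cells that lie in muscle differed by cell type in how many were called. TV against NTV called 25.2% of all tested genes, 13.8% higher and 11.5% lower. In that comparison, 1 of 11 tested white adipocyte markers was called, Aqp7, which was lower, at -0.82 ± 0.23 (adjusted p = 0.0233), while the list's median was 0.81. When the 3 libraries high in Ucp1 were left out, 5 of these markers were called higher and 1 lower. The brown adipocyte markers had 1 of 6 called, Dio2, which was lower. The fibro-adipogenic progenitor markers had 4 of 7 called lower, among them Col1a1 at -3.33 ± 0.40 (adjusted p = 0.000898), and their summed level was 127 to 170 FPKM in NTV, 85.3 to 131 in TV and 59.2 to 106 in TL. The endothelial markers had 2 of 7 called lower, Kdr and Cdh5, with sums of 70.1 to 101.2 FPKM in NTV, 56.6 to 69.8 in TV and 45.4 to 60.8 in TL. Macrophage markers had 0 of 8 called by limma or voom and 0 at an unadjusted p under 0.05, with sums of 22.1 to 56.4 FPKM in NTV, 24.4 to 56.8 in TV and 21.6 to 40.2 in TL. Of 9 muscle markers, Mb, myoglobin of oxidative fibres, was called lower, at -1.62 ± 0.40 (adjusted p = 0.0134). With the white adipocyte marker mean as a covariate, Pnpla3 was -2.07 ± 0.48 and Plin5 -1.85 ± 0.34 in TV against NTV, both called. The same covariate also gave calls for G0s2, Lipe and Plin2, and turned the sign of Lipe. It is a marker mean from these same libraries. The part of fat cells, and of the other cell types, in the changes of the lipid droplet genes was not tested.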

How the data were processed

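The authors deposited FPKM for 54532 genes in 12 libraries; the gene length in the same deposited table (unit: other) was used only to recover reads. Per the labels' protocols, libraries were made from poly(A) RNA with random hexamers; whether counting used strand is not given in the sources used here. HISAT2 2.05, featureCounts 1.5.0-p3, DESeq2 and mm10 stand in the submitters' processing notes, with no role given. FPKM times length was a whole number of reads, within 0.1 read, for 100% of genes, and libraries were scaled as by median-of-ratios size factors (relative difference 7.61e-12), which holds only if most genes are alike between groups. Depth was 14939830 to 23580603 assigned reads; counting error is largest where reads are few. Same-group libraries differed by more than counting error: the lowest chi-square over its degrees of freedom was 16.4 among 18 pairs.

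limma 3.58.1 in R 4.3.3 was fitted to log2(FPKM + 0.5) over all 12 libraries, with a mean for each group and a trend of variance on mean. Genes under a mean of 0.5 FPKM were left out, and p-values of the other 12754 were adjusted by Benjamini-Hochberg. A fold change on this scale understates the change of low genes. Tests are 2-sided. The script was tested on simulated data first. The 10 genes and the 12 lists (140 symbols, all found, 1 under its older name Tusc5) were chosen with earlier results of these data known. Of list genes, up to 3 called genes with the largest change per list and comparison are named, or 2 as values where none was called, from which the text gives a selection; Adipoq and Ucp1 were chosen for mention after their values were seen. Alternatives were other pseudocounts (0.1 and 1), filters, scalings, fits, voom on recovered reads, a replicate block, an adipocyte covariate, and libraries left out. Promoter windows and motifs came from RefSeq, with all 10 genes matched. Python 3.11.15, pandas 2.3.3, numpy 2.4.6 and matplotlib 3.10.9 made the tables and figures.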

Additional observations from a re-analysis of the deposited data

Results flagged for a closer look

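Lipe in NTV replicate 5 stood at 9.69 FPKM, apart from the other 3 NTV libraries at 3.25 to 4.09 FPKM. Its gap to the nearest of them, divided by the range of the group, was 0.869, above Dixon's 95% critical value for 4 samples. The same library had Ucp1 at 53.4 FPKM and the highest white adipocyte marker mean of NTV. Of 30 groups examined, 10 genes in 3 groups, this was the 1 beyond the limit, and chance alone passes about 1 group in 20.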

How the results depend on the processing

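In TV against NTV, where 4 of the 10 genes were called, 7 were called with the adipocyte covariate (Pnpla3, G0s2, Lipe, Mgll, Plin2, Plin4 and Plin5), 3 to 5 with each library left out in turn, and 0 with the replicate block. That block fits a term per replicate number, which leaves few residual degrees of freedom. NTV replicate 2, TV replicate 8 and TL replicates 1 and 7 have no same-numbered partner and then add nothing to the changes. In TL against TV, 0 were called with no filter, with only the 2 groups compared, with the replicate block and when the 3 libraries with Ucp1 above 2 FPKM were left out, and 0 to 2 with each library left out. In TL against NTV, 0 were called with no filter and with the replicate block, 2 without the libraries with Ucp1, 3 with the adipocyte covariate, and 0 to 1 with each library left out. The cause was not tested. The deviations of same-numbered libraries correlated by 0.014 to 0.13 in 4 pairs, which cannot show whether they share more than a number. Over the alternatives the genes called in TV against NTV ran from 0 to 5 for other droplet proteins, 0 to 3 for triglyceride synthesis, 0 to 4 for other lipases and for signalling, 0 to 8 for the SREBP list, 0 to 3 for PPAR, 0 to 6 for white and 0 to 3 for brown adipocyte, 0 to 3 for endothelial, 0 to 4 for progenitor and 0 to 2 for muscle markers, and 0 for macrophage markers. In TL against TV no list had more than 1 called, and in TL against NTV none more than 4.

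No called change of the 10 genes turned its sign under any of the 26 alternatives. Over all changes and alternatives, 701 stayed on the same side, 32 called ones lost the call, 37 turned sign and 12 gained a call, 2 of which, both of Lipe, also turned sign. Changes that turned sign were as follows, on the log2 scale. In TV against NTV, Abhd5 was 0.091 with the replicate block and Lipe -0.54 with the adipocyte covariate. In TL against TV with the replicate block, Abhd5 was -0.14, Lipe -0.34, Mgll -0.30, Plin2 -0.18 and Plin5 -0.36. Without the libraries with Ucp1 above 2 FPKM, Abhd5 was -0.0093, Lipe -0.47, Mgll -0.31, Plin2 -0.31, Plin3 -0.33 and Plin5 -0.43, and with the adipocyte covariate Plin5 was -0.017. In TL against NTV without the libraries with Ucp1, Pnpla2 was -0.21, Abhd5 -0.049, G0s2 -0.56, Lipe -0.049 and Plin2 -0.41. With the adipocyte covariate Pnpla2 was -0.20, Abhd5 -0.024, Lipe -0.47 and Plin2 -0.54, and with the replicate block Abhd5 was -0.047, Lipe -0.11 and Plin2 -0.25. With each library left out, Abhd5 ran from -0.15 to 0.058 and Lipe from -0.11 to 0.42 in TV against NTV. In TL against TV, Pnpla2 ran from -0.37 to 0.12, Plin3 from -0.087 to 0.60 and Plin5 from -0.22 to 0.31. In TL against NTV, Plin2 ran from -0.15 to 0.38 and Plin3 from -0.56 to 0.026.

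With 4 libraries per group and counts as low as 20 reads for Pnpla3 in TV, a change that missed the threshold is not shown to be absent. The libraries with Ucp1 above 2 FPKM are 1 of NTV and 2 of TL, so leaving them out leaves 2 TL libraries; white adipocyte markers were present in all 12.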
